A study of Bos taurus with 3 samples.

Results

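Desmosomes are the spot-like junctions that fasten epithelial cells to each other, and the genes of their parts were followed here through the rumen epithelium. The 10 genes *DSP*, *JUP*, *PKP1*, *PKP2*, *PKP3*, *DSG2*, *DSG3*, *DSC2*, *DSC3* and *PERP* were taken by name from the 19533 genes with a row in the deposited count table, and all 10 were found. They were compared between cells that carry *DLK2*, *KRT15*, *GJA1* or *BPIFA2C* transcripts, and none of the 10 was used to set these cell states. The cells were rumen epithelial cells of 3 adult Holstein dairy cows in lactation, from the ventral sac, and each cow gave 1 droplet single-cell library, with no treatment. Each captured transcript carried a unique molecular identifier (UMI), so that PCR copies were not counted again. The table held 20728 cells and between 38912809 (cow 1) and 104189434 (cow 3) UMIs per library. Of 20693 barcodes, 35 occurred in more than 1 library.

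In a desmosome, the desmogleins (*DSG*) and desmocollins (*DSC*), which are cadherins, cross the membrane and bind those of the neighbouring cell. Inside the cell they hold the armadillo proteins plakoglobin (*JUP*) and the plakophilins (*PKP*), and these hold desmoplakin (*DSP*), which ties the junction to keratin filaments. *PERP* encodes a membrane protein that stratified epithelia need for stable desmosomes. In skin, desmosomal cadherins and plakophilins are exchanged for other family members as keratinocytes leave the basal layer. The rumen wall is likewise lined by a stratified squamous epithelium, in which cells move from a basal layer through a spinous and a granular layer toward the lumen.

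The cell states were set by UMIs of the 4 genes. A cell with at least 3 *BPIFA2C* UMIs and at least 10 per 10000 of its UMIs was called a BPIFA2C cell. Any other cell was called by the 1 gene it passed among *GJA1* and *DLK2*, with at least 2 UMIs each, and *KRT15*, with at least 2 UMIs and a level at or above the 75th percentile of its cow. This gave 2822 DLK2 cells (13.6%), 4034 KRT15 cells (19.5%), 648 GJA1 cells (3.13%) and 265 BPIFA2C cells (1.28%). A further 1102 cells passed more than 1 gate and 11857 passed none, and neither were compared. The gates cut through continuous values, since 150 GJA1 cells and 1502 DLK2 cells had exactly 2 UMIs of their gene and 1019 KRT15 cells lay within 10% above their gate. *KRT15* had a UMI in 20686 cells, so the KRT15 cells are those with much *KRT15* and not those with any. Of the 265 BPIFA2C cells, 217 also passed the *GJA1* gate.

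The states differed in depth, mitochondrial share and cycling. The median was 9698.5 UMIs per cell in DLK2 cells, 11003.5 in KRT15 cells, 17550.5 in GJA1 cells and 15604 in BPIFA2C cells. The median mitochondrial share was 9.68%, 12.96%, 16.6% and 17.5% in the same order. The summed level of 4 genes of dividing cells (*MKI67*, *TOP2A*, *TROAP*, *RRM2*), in CPM, that is UMIs scaled to a common library size, was 55.0, 14.0 and 197 in DLK2 cells of cows 1, 2 and 3, 58.8, 17.5 and 87.2 in KRT15 cells, 140, 103.8 and 114 in GJA1 cells, and 112, 35.4 and 126 in BPIFA2C cells. In cows 1 and 2 it was highest in GJA1 cells, and in cow 3 in DLK2 cells. The comparisons below were repeated in cells of 5000 to 20000 UMIs, without cells that carry *MKI67* or *TOP2A* UMIs, and without mitochondrial genes. Leaving out mitochondrial genes changed no call of the 10 genes. Cells of a like mitochondrial share were not compared between states. The BPIFA2C cells divided below by that share were compared with GJA1 cells of any share.

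Markers of other layers also moved between the states. The summed level of 5 genes of spinous or later cells (*KRT6A*, *S100A8*, *KRT10*, *TMEM79*, *GSTA1*) lay between 194 and 303 CPM in DLK2 cells, 509 and 984 in KRT15 cells, 2621 and 6349 in GJA1 cells, and 3728 and 16353 in BPIFA2C cells. Of the 5, 4 were higher in KRT15 than in DLK2 cells, 5 in GJA1 than in DLK2 cells, 5 in GJA1 than in KRT15 cells and 2 in BPIFA2C than in GJA1 cells, and none was lower, where 9.28%, 22.4%, 14.8% and 0.965% of all genes were higher. The summed level of 5 basal genes (*ITGA6*, *ITGB4*, *COL17A1*, *ITGB1*, *TP63*) was 1088 ± 155 CPM (SD, n = 3 cows) in DLK2 cells and 673 ± 142 in GJA1 cells. Most of that difference was *COL17A1*, at 663 ± 128 and 289 ± 58.5 CPM. Of the 5, *COL17A1*, *ITGB1* and *ITGB4* were lower in GJA1 than in DLK2 cells, *TP63* did not pass, and *ITGA6* was higher (log2 fold change 0.51 ± 0.10, adjusted p = 0.000636), where 23% of all genes were lower and 22.4% higher. *DLK2* is the gene by which the study named granule cells, but the DLK2 cells had the highest mean summed basal markers of the 4 states. That sum leaves out *KRT5* and *KRT14*, by which the study named basal cells. *KRT5* was higher than in DLK2 cells in KRT15 cells (log2 fold change 0.60 ± 0.07, adjusted p = 1.68e-05) and in GJA1 cells (0.35 ± 0.07, adjusted p = 0.000756). *KRT14* passed in none of the 4 comparisons. The DLK2 cells are therefore called here by their gene alone. The 5 spinous or later genes include ones by which the study described GJA1 cells, so their high sum in GJA1 and BPIFA2C cells is no independent check, and their low sum in DLK2 cells does not measure a granular state. The KRT15 cells are not called basal either, because the basal markers were divided. Against DLK2 cells *ITGB1* was lower in them, *ITGA6* and *KRT5* were higher, and *COL17A1*, *ITGB4*, *TP63* and *KRT14* did not pass the test. Markers of fibroblasts summed to at most 1.02 CPM and those of smooth muscle to at most 0.899 in any cow and state. Markers of endothelium (*PECAM1*, *VWF*, *CDH5*, *KDR*) summed to 1.33 to 7.07 CPM, and of the 4 only *VWF* was tested, which was higher in GJA1 cells than in DLK2 cells (log2 fold change 1.40 ± 0.33) and than in KRT15 cells (0.90 ± 0.30). Immune markers (*PTPRC*, *CD3E*, *CD68*, *CD14*) summed to 5.71 to 49.9 CPM, and of the 2 that were tested, *CD14* and *CD68*, *CD14* was lower in GJA1 and in KRT15 than in DLK2 cells and *CD68* passed in no comparison.

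UMIs were summed per cow and state, and the 12 sums were compared with the edgeR quasi-likelihood test with the cow as a block and Benjamini-Hochberg adjustment over 9743 genes. A gene was called higher or lower where its adjusted p was under 0.05 and its log2 fold change exceeded 0.25 in size. All 10 desmosome genes passed the filter on low counts. Levels are CPM after TMM scaling and are compared between states for 1 gene, not between genes. Neighbouring comparisons share sums, so their results are not independent of each other.

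By mean level, 9 of the 10 desmosome genes were lowest in DLK2 cells, and 8 of them were called higher in GJA1 than in DLK2 cells, while *DSG2* went the other way. The share of all genes lowest in DLK2 cells was not counted. Of the 9, *PKP2* rested on 12, 17 and 3 UMIs in DLK2 cells of cows 1, 2 and 3. In cow 1 it was higher there (1.89 CPM) than in KRT15 (1.76) or GJA1 cells (1.21). In KRT15 cells against DLK2 cells, 7 of the 10 were higher and 1 was lower, where 9.28% of all genes tested were higher and 6.97% lower (16.2% together). In GJA1 cells against DLK2 cells, 8 were higher and 1 was lower, against 22.4% and 23% of all genes (45.4% together). In GJA1 cells against KRT15 cells, 3 were higher and 1 was lower, against 14.8% and 13.8% (28.5% together). In BPIFA2C cells against GJA1 cells, 2 were higher and none was lower, against 0.965% and 0.277% (1.24% together), while 7 of the 10 had an unadjusted p under 0.05, as had 9.6% of all genes, and DESeq2 called 4 higher and none lower, against 1.16% and 0.287% of all genes. The median log2 fold change of the 10 genes was 0.58, 0.84, 0.24 and 0.36 in these 4 comparisons, while that of all genes lay between -0.038 and -0.0172.

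**Figure D1:**
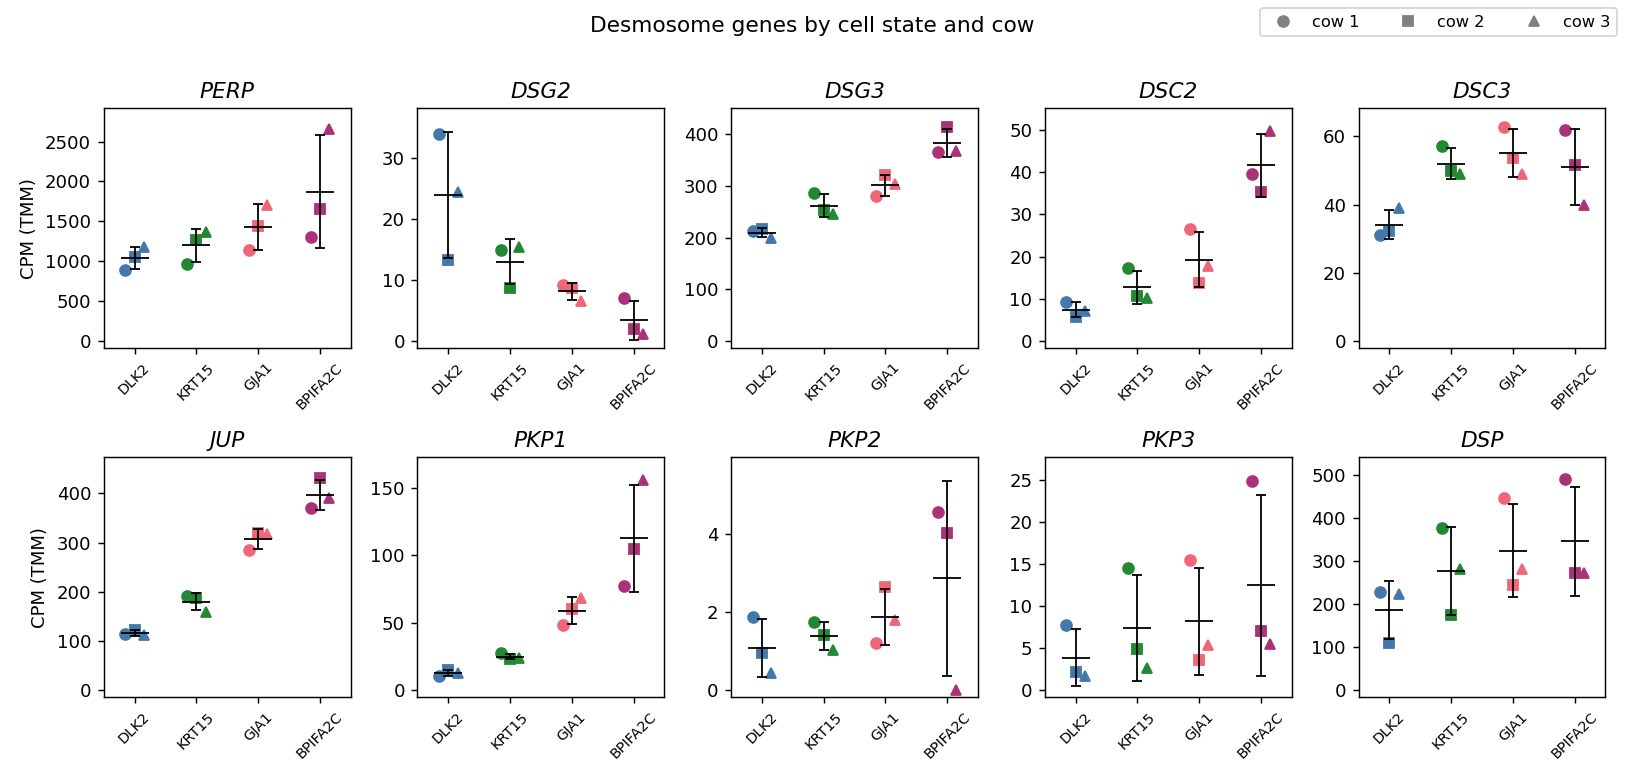
Level of each desmosome gene in CPM (TMM-scaled, linear axis) in the sums of DLK2, KRT15, GJA1 and BPIFA2C cells, with 1 symbol per cow and the mean ± SD of the 3 cows in black. *JUP* and *PKP1* rise from left to right with no overlap between states, and cow 1 stands above the other cows for *PKP3*. *DSG2* falls in every cow, but in cow 2 only from 8.79 to 8.67 CPM between KRT15 and GJA1 cells.

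Without the block for the cow, 0 of the 10 genes were called in KRT15 against DLK2 cells, although 8 had been, and 0.698% of all genes were. In that fit GJA1 against DLK2 cells kept 5 higher genes and *DSG2*, with *DSP*, *PKP3* and *PERP* no longer called, where 17.1% of all genes were. BPIFA2C against GJA1 cells kept none (all genes 0.174%), and *DSG2* and *DSC2* were lost between GJA1 and KRT15 cells (all genes 3.41%). The states were taken from the same animals, so the block stands in the main fit.

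Among the cadherins, *DSG2* (ENSBTAG00000021923), a desmoglein that in other species is found in simple epithelia and in the lower layers of stratified ones, was the gene that fell. Its level in cows 1, 2 and 3 was 34.1, 13.3 and 24.6 CPM in DLK2 cells, 15.0, 8.79 and 15.5 in KRT15 cells, 9.20, 8.67 and 6.61 in GJA1 cells, and 7.11, 2.02 and 1.105 in BPIFA2C cells. The order was the same in each cow, although cow 2 in DLK2 cells lay below cows 1 and 3 in KRT15 cells. Before TMM scaling, the level in cow 2 did not fall from KRT15 to GJA1 cells. *DSG2* was 2.76-fold lower in GJA1 than in DLK2 cells, at a log2 fold change of -1.46 ± 0.23 (SE, adjusted p = 5.07e-05), and this call held in all 12 alternatives run. It was also lower in KRT15 than in DLK2 cells, by a log2 fold change of -0.79 ± 0.17 (adjusted p = 0.00359). That call did not hold without cow 1 (adjusted p = 0.0883). The step from KRT15 to GJA1 cells, at -0.68 ± 0.24, passed narrowly (adjusted p = 0.0402) and was lost in 8 of 13 alternatives, among them without cow 1 (adjusted p = 0.167), without cow 3 (adjusted p = 0.258) and with DESeq2 (adjusted p = 0.162). From GJA1 to BPIFA2C cells the log2 fold change was -1.05 ± 0.46 and did not pass (adjusted p = 0.469), on only 14, 2 and 1 UMIs in the BPIFA2C cells of the 3 cows.

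*DSG3* (ENSBTAG00000039483), the desmoglein of stratified epithelia that is the target of pemphigus vulgaris antibodies, moved opposite to *DSG2*. In cows 1, 2 and 3 it was at 213, 216 and 199 CPM in DLK2 cells, 287, 252 and 245 in KRT15 cells, 279.7, 319.9 and 302 in GJA1 cells, and 365, 413 and 368 in BPIFA2C cells. The KRT15 and GJA1 ranges overlapped, while DLK2 cells lay below and BPIFA2C cells above all others. *DSG3* was 1.44-fold higher in GJA1 than in DLK2 cells (log2 fold change 0.52 ± 0.09, adjusted p = 0.000175), and that call held in all 12 alternatives. Against DLK2 cells the KRT15 cells were higher by 0.32 ± 0.09 on the log2 scale (adjusted p = 0.0219), but the call was lost when any cow was left out (adjusted p of 0.125, 0.0951 and 0.0598 without cows 1, 2 and 3). Neither later step passed, with log2 fold changes of 0.20 ± 0.09 from KRT15 to GJA1 cells (adjusted p = 0.107) and 0.34 ± 0.10 from GJA1 to BPIFA2C cells (adjusted p = 0.122).

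The desmocollins *DSC2* (ENSBTAG00000040584) and *DSC3* (ENSBTAG00000015238), of which *DSC3* is the one known for basal layers and *DSC2* is broadly expressed, both rose from DLK2 to KRT15 cells, and of the 2 *DSC2* alone passed in the steps from KRT15 to GJA1 and from GJA1 to BPIFA2C cells. *DSC2* in cows 1, 2 and 3 was at 9.30, 5.83 and 7.04 CPM in DLK2 cells, 17.3, 10.8 and 10.1 in KRT15 cells, 26.4, 13.7 and 17.7 in GJA1 cells, and 39.6, 35.4 and 49.7 in BPIFA2C cells. It rose in every cow at every step, and the BPIFA2C cells lay above all other states. The log2 fold change was 0.76 ± 0.17 from DLK2 to KRT15 cells (adjusted p = 0.00398), 1.38 ± 0.19 from DLK2 to GJA1 cells (adjusted p = 1.12e-05), 0.62 ± 0.17 from KRT15 to GJA1 cells (adjusted p = 0.0102) and 1.05 ± 0.20 from GJA1 to BPIFA2C cells (adjusted p = 0.00839). The KRT15 to GJA1 call was lost with gates of at least 1 UMI (adjusted p = 0.0761), and the DLK2 to KRT15 call without cow 2 (adjusted p = 0.0983). The GJA1 to BPIFA2C call was lost in 5 of 15 alternatives. Among them were the fits without cow 2 (adjusted p = 0.148), without cow 3 (adjusted p = 0.0518) and with only BPIFA2C cells of at least 5% mitochondrial UMIs.

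*DSC3* stayed between 31.1 and 39.1 CPM in DLK2 cells, and between 39.8 and 62.7 CPM in the other 3 states. It was higher in KRT15 than in DLK2 cells by 0.60 ± 0.12 on the log2 scale (adjusted p = 0.00145; 0.0587 without cow 2), and in GJA1 than in DLK2 cells by 0.69 ± 0.13 (adjusted p = 0.000247). Neither later step passed, with log2 fold changes of 0.09 ± 0.12 from KRT15 to GJA1 cells and -0.08 ± 0.15 from GJA1 to BPIFA2C cells.

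Among the armadillo proteins, *JUP* (ENSBTAG00000017685), whose protein plakoglobin also sits in adherens junctions, separated all 4 states. In cows 1, 2 and 3 it was at 114, 123 and 112 CPM in DLK2 cells, 191, 188 and 159.9 in KRT15 cells, 284, 320.2 and 318 in GJA1 cells, and 370.2, 430.3 and 391 in BPIFA2C cells. No 2 states overlapped. *JUP* was higher in KRT15 than in DLK2 cells by 0.63 ± 0.09 on the log2 scale (adjusted p = 0.000124), in GJA1 than in KRT15 cells by 0.78 ± 0.09 (adjusted p = 1e-05) and in GJA1 than in DLK2 cells by 1.40 ± 0.09 (adjusted p = 2.96e-09), which is 2.65-fold. Both differences of the GJA1 cells held in every alternative run, and that of the KRT15 cells in all but the fit without the block. From GJA1 to BPIFA2C cells the log2 fold change of 0.37 ± 0.09 did not pass (adjusted p = 0.0844), though it did pass in 4 of 15 alternatives, among them a stricter *BPIFA2C* gate and DESeq2.

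*PKP1* (ENSBTAG00000046350), the plakophilin of the upper layers of skin, rose the most. It was at 10.2, 15.1 and 12.6 CPM in DLK2 cells, 27.4, 23.4 and 24.2 in KRT15 cells, 48.4, 60.0 and 68.5 in GJA1 cells, and 77.2, 105 and 156 in BPIFA2C cells of cows 1, 2 and 3. Its states did not overlap either. *PKP1* was 4.51-fold higher in GJA1 than in DLK2 cells (log2 fold change 2.17 ± 0.17, adjusted p = 2.49e-08) and 2.39-fold higher than in KRT15 cells (1.26 ± 0.16, adjusted p = 2.14e-05), and both calls held in every alternative run. It was higher in KRT15 than in DLK2 cells by 0.92 ± 0.17 on the log2 scale (adjusted p = 0.000997). From GJA1 to BPIFA2C cells it rose by a log2 fold change of 0.89 ± 0.17 (adjusted p = 0.0104). That call was lost in 4 of 15 alternatives, among them without cow 2 (adjusted p = 0.0782) and with only BPIFA2C cells of at least 5% mitochondrial UMIs.

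*PKP3* (ENSBTAG00000048098), a plakophilin present in most layers of stratified epithelia, was low and was higher in cow 1 than in the other cows. Cow 1 had 7.73 CPM in DLK2 cells, 14.5 in KRT15, 15.5 in GJA1 and 24.9 in BPIFA2C cells, while cows 2 and 3 lay between 1.72 and 7.07 in all 4. With the cow as a block it was higher than in DLK2 cells both in KRT15 cells, by 0.91 ± 0.21 on the log2 scale (adjusted p = 0.0053), and in GJA1 cells, by 1.08 ± 0.24 (adjusted p = 0.00163). The KRT15 call was lost without cow 1 (adjusted p = 0.125) and without cow 2 (adjusted p = 0.0986). The log2 fold changes of *PKP3* from KRT15 to GJA1 cells (0.17 ± 0.22, adjusted p = 0.606) and from GJA1 to BPIFA2C cells (0.62 ± 0.28, adjusted p = 0.487) did not pass. *PKP2* (ENSBTAG00000002651), the plakophilin of heart and simple epithelia, had 305 UMIs in all cells. Its level was at most 4.57 CPM in any sum, no UMI was found in the BPIFA2C cells of cow 3, and it passed in no comparison. Its log2 fold changes were 0.49 ± 0.41 from DLK2 to KRT15 cells, 0.88 ± 0.50 from DLK2 to GJA1 cells, 0.39 ± 0.46 from KRT15 to GJA1 cells and 0.72 ± 0.62 from GJA1 to BPIFA2C cells.

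The plakin *DSP* (ENSBTAG00000015106), which links the junction to keratins, was lowest in DLK2 cells as well. In cows 1, 2 and 3 it was at 227, 109 and 223 CPM in DLK2 cells, 377, 174 and 281 in KRT15 cells, 446, 243 and 281 in GJA1 cells, and 490.1, 273 and 272 in BPIFA2C cells. Cow 2 was lowest in the first 3 states, and neighbouring states overlapped in range, while all GJA1 and BPIFA2C sums lay above the DLK2 sums. *DSP* was higher in KRT15 than in DLK2 cells by 0.57 ± 0.14 on the log2 scale (adjusted p = 0.00888), which was lost without cow 1 (adjusted p = 0.175) and without cow 2 (adjusted p = 0.075). In GJA1 cells it was 1.75-fold higher than in DLK2 cells (0.81 ± 0.14, adjusted p = 0.000163). It passed neither from KRT15 to GJA1 cells (0.25 ± 0.14) nor from GJA1 to BPIFA2C cells (0.10 ± 0.15).

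*PERP* (ENSBTAG00000020097) was at 896, 1051 and 1178 CPM in DLK2 cells of cows 1, 2 and 3, 969.8, 1272 and 1364 in KRT15 cells, 1136, 1442 and 1710.5 in GJA1 cells, and 1303, 1655 and 2662 in BPIFA2C cells. Neighbouring states overlapped, but within each cow the order of these TMM-scaled levels was the same. Before that scaling, the level in cow 1 did not rise from DLK2 to KRT15 cells. *PERP* passed between GJA1 and DLK2 cells, at 1.36-fold (log2 fold change 0.44 ± 0.10, adjusted p = 0.00226). The log2 fold changes of 0.20 ± 0.10 from DLK2 to KRT15, 0.24 ± 0.10 from KRT15 to GJA1 and 0.36 ± 0.11 from GJA1 to BPIFA2C cells did not pass.

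**Figure D2:**
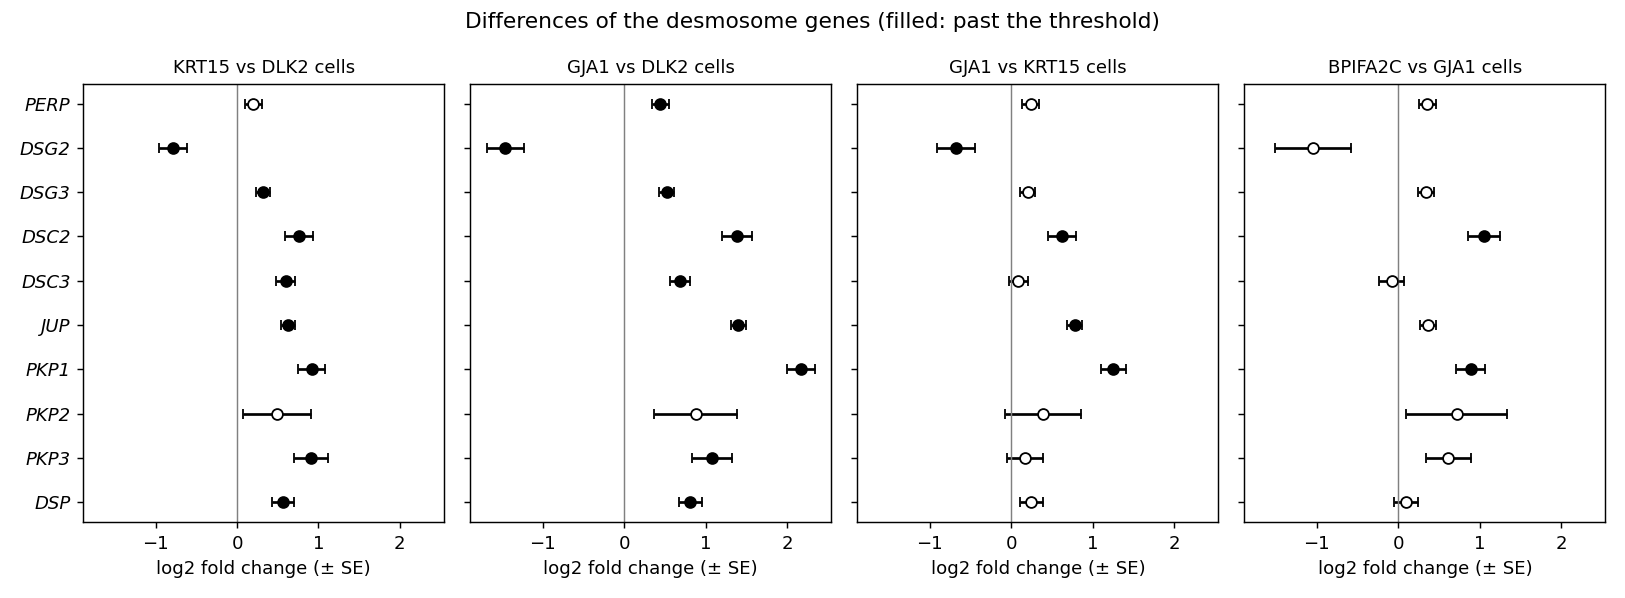
Log2 fold change (horizontal axis, ± SE derived from the edgeR test with the cow as a block) of the desmosome genes in the 4 comparisons. Filled symbols mark genes past the threshold. *DSG2* lies left of 0 in all 4 panels, and *PKP1* in GJA1 against DLK2 cells has the largest value of the 10 genes, 2.17.

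Within cows, 4 of the 10 genes (*JUP*, *PKP1*, *DSC2*, *PERP*) rose at each step from DLK2 through KRT15 and GJA1 to BPIFA2C cells in all 3 cows, as did 300 of the 9743 genes tested (3.08%). *DSG2* fell at each step in all 3 cows, as did 222 genes (2.28%). *JUP* and *PKP1* also had no overlap between any states, as had 42 genes that rose (0.431%). These orders are of TMM-scaled levels. Before that scaling, *DSG2* in cow 2 did not fall from KRT15 to GJA1 cells, and *PERP* in cow 1 did not rise from DLK2 to KRT15 cells. The order of the states was given by these results and not set beforehand.

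The same UMIs can be given as shares within a family, which restate the levels above and are no further evidence. They compare states and do not measure how much of each protein a cell holds. *DSG3* made up 89.8 ± 4.04% (SD, n = 3 cows) of the *DSG2* and *DSG3* UMIs in DLK2 cells, 95.2 ± 1.30% in KRT15 cells, 97.3 ± 0.524% in GJA1 cells and 99.1 ± 0.882% in BPIFA2C cells. The mean share was 7.54 percentage points above that of DLK2 cells in GJA1 cells, with the same direction in 3 of 3 cows. *DSC3* made up 82.1 ± 4.49% of the *DSC2* and *DSC3* UMIs in DLK2 cells and 80.6 ± 3.35% in KRT15 cells, then 74.5 ± 4.72% in GJA1 cells and 54.9 ± 9.11% in BPIFA2C cells. The difference between BPIFA2C and GJA1 cells was -19.6 points and was below 0 in 3 of 3 cows. *PKP1* made up 73.2 ± 18.8% of the plakophilin UMIs in DLK2 cells and 85.1 ± 9.33% in GJA1 cells, with cow 1 the lowest in every state. Over 20 such differences, the exact two-sided sign-flip permutation test of 3 pairs gave no p below 0.25, which is the smallest it can give, and an adjusted p of at least 0.357, so with 3 cows this test cannot pass.

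**Figure D3:**
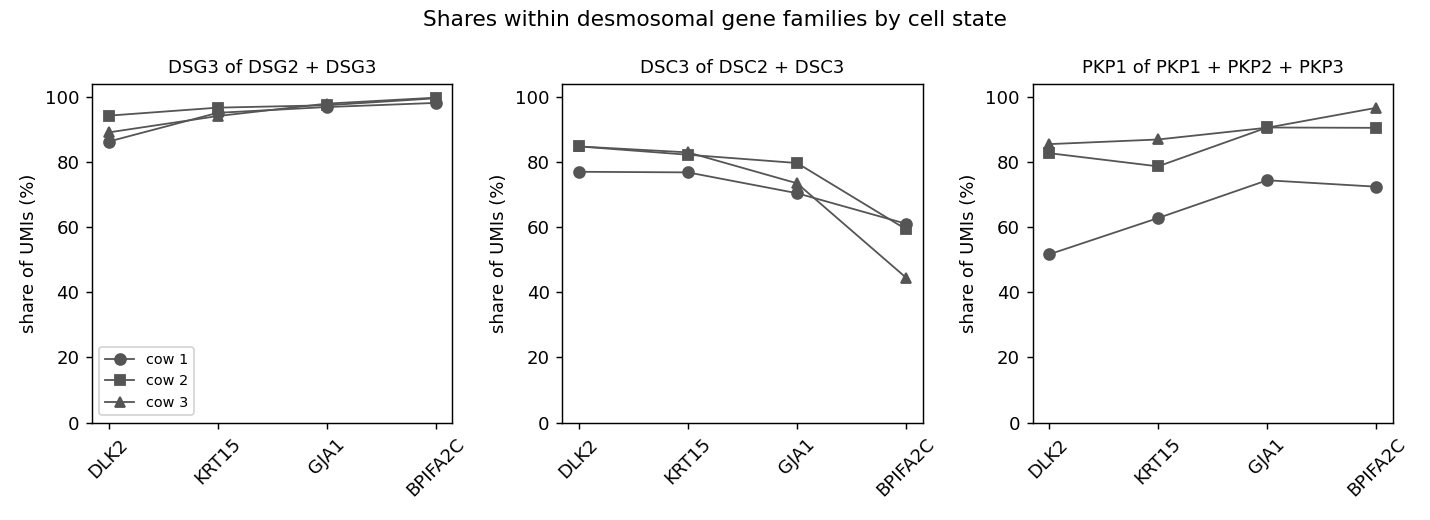
Share of UMIs (%) of *DSG3* among *DSG2* and *DSG3*, of *DSC3* among *DSC2* and *DSC3*, and of *PKP1* among the plakophilins, by cell state, with 1 line per cow. The *DSC3* share ends at 61.0%, 59.3% and 44.4% in BPIFA2C cells of cows 1, 2 and 3, and the *PKP1* share of cow 1 lies below those of the other cows.

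In the RefSeq gene table of the assembly ARS-UCD2.0, the 4 cadherin genes lie in 1 run of 7 neighbouring protein-coding genes, in the order *DSG2*, *DSG3*, *DSG4*, *DSG1*, *DSC1*, *DSC2*, *DSC3*. *DSG2* and *DSG3*, which moved in opposite directions between GJA1 and DLK2 cells, are direct neighbours in it. Of the other genes of the run, *DSG1* had 49 UMIs in all cells and *DSC1* had 5, and *DSG4* had no row under that name among the counts.

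Over the 12 sums, with the mean of each cow taken out of log2 CPM, *DSG2* correlated negatively with each of the other 9 genes, with r from -0.98 with *DSC2* to -0.14 with *PKP2*. The 36 pairs of the others had r between 0.15 and 0.99, the highest for *JUP* and *PKP1*. These sums share cows and states, so r is a description with no p. Among 3552 genes outside the 10 with a mean of at least 20 CPM, the pattern of *JUP* was closest to that of *TMEM79* (r = 0.995), a gene of the lamellar granules of the skin barrier, and *SMIM5* (r = 0.994). Both passed the minimum through the states in which they were high, since *TMEM79* was at 14.9 CPM in DLK2 cells, and *SMIM5* at 1.98 CPM in DLK2 and 6.79 in KRT15 cells against 27.9 in GJA1 and 58.0 in BPIFA2C cells, so the minimum favoured genes that rise as *JUP* does. That of *PKP1* was closest to *KRT6A* (r = 0.997), a keratin of activated and suprabasal keratinocytes, and *S100A12* (r = 0.993). *KRT6A* and *TMEM79* are among the spinous or later genes above. *DSG2* was closest to *NBN* (r = 0.971), a gene of DNA break repair, and *UBAC2* (r = 0.963). *DSP* went with *KTN1* (r = 0.978) and *LMO1* (r = 0.972), and *DSC3* with *CRYBG1* (r = 0.960) and *KTN1* (r = 0.959). *DSG3* (r = 0.989) and *DSC2* (r = 0.982) shared the aldehyde-reducing enzyme gene *AKR1A1* as their closest, followed by *SNRNP200* (r = 0.988) and *RNF145* (r = 0.978). *RNF145*, at 14.9 CPM in DLK2 cells and 30.8 in BPIFA2C cells, also passed the minimum through the states in which it was high. *PERP* was closest to *CTNNBIP1* (r = 0.983) and *CSTB.1* (r = 0.982), *PKP3* to *FUCA1* (r = 0.967) and *KLHL21* (r = 0.966), and *PKP2* to *ZDHHC12* (r = 0.906) and *CDK11B* (r = 0.861).

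Other genes of cell junctions were taken from lists. Of 7 further desmosome and cornified-junction genes, 5 had a row and 3 were tested. Of the 3, 1 was higher in KRT15 than in DLK2 cells (all genes 9.28%), 1 was higher and 1 lower in GJA1 than in DLK2 cells (all genes 22.4% and 23%), 1 was lower in GJA1 than in KRT15 cells (all genes 13.8%), and in BPIFA2C against GJA1 cells edgeR called 0 and 0 had an unadjusted p under 0.05 (all genes 9.6%). *EVPL*, which encodes the plakin envoplakin of the cornified envelope, was higher than in DLK2 cells both in KRT15 cells (log2 fold change 0.65 ± 0.19) and in GJA1 cells (0.82 ± 0.22). *PKP4*, an armadillo gene related to the plakophilins, was lower in GJA1 than in DLK2 cells (-0.31 ± 0.11) and than in KRT15 cells (-0.33 ± 0.11). *PPL*, which encodes periplakin, passed in none of the 4 comparisons.

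Of 10 adherens junction genes, all tested, 4 were higher and 2 lower in GJA1 than in DLK2 cells, where 22.4% of all genes were higher and 23% lower, with a median log2 fold change of 0.24 against -0.04 for all genes. The 2 lower of 10 are thus near the share over all genes. *NECTIN4*, an adhesion receptor with 38 UMIs in DLK2 cells, was higher by 3.78 ± 0.22 on the log2 scale and *CDH1*, which encodes E-cadherin, by 1.33 ± 0.14. *CDH3*, which encodes the P-cadherin of basal cells, was at a log2 fold change of -1.66 ± 0.15. In KRT15 against DLK2 cells 3 were higher and 1 lower (all genes 9.28% and 6.97%), with *NECTIN4* at 1.93 ± 0.23, *CDH1* at 0.62 ± 0.14 and *CDH3* at -0.46 ± 0.12. In GJA1 against KRT15 cells 3 were higher and 1 lower as well (all genes 14.8% and 13.8%), with *NECTIN4* at 1.86 ± 0.17, *CDH3* at -1.19 ± 0.16 and *AFDN*, the nectin-binding afadin, at 0.81 ± 0.19. In BPIFA2C against GJA1 cells edgeR called 0, and 2 had an unadjusted p under 0.05, where 9.6% of all genes had.

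Of 12 keratins beside *KRT15*, 11 had a row and 8 were tested. Against DLK2 cells, 4 were higher and 1 was lower both in KRT15 cells and in GJA1 cells, where 16.2% and 45.4% of all genes were called in either direction. In KRT15 cells the largest were *KRT6A* (1.47 ± 0.19), *KRT18* (-1.31 ± 0.22) and *KRT19* (0.62 ± 0.15). In GJA1 cells *KRT6A* was higher by 3.47 ± 0.21 on the log2 scale and *KRT17* by 1.33 ± 0.21, and *KRT18*, a keratin of simple epithelia, was at -3.13 ± 0.37. In GJA1 against KRT15 cells 3 were higher and 3 lower (all genes 14.8% and 13.8%), with *KRT6A* at 1.99 ± 0.19, *KRT18* at -1.82 ± 0.42 and *KRT17* at 1.22 ± 0.21. Both values of *KRT18* in GJA1 cells rest on only 13 UMIs there, against 365 in DLK2 and 189 in KRT15 cells. *KRT18* passed the filter on low counts through the states in which it was high. In BPIFA2C against GJA1 cells, where 1.24% of all genes were called, *KRT6A* (1.59 ± 0.19) and *KRT17* (0.96 ± 0.21) were higher and *KRT5*, the main type II keratin of basal cells, was lower (-0.45 ± 0.07).

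Of 13 regulators of desmosome genes or proteins, all tested, 5 were higher and 2 lower in GJA1 than in DLK2 cells, and as many in GJA1 than in KRT15 cells. The 7 called of 13 are near the 45.4% of all genes called in GJA1 against DLK2 cells, and stand beside 28.5% in GJA1 against KRT15 cells. Against DLK2 cells the largest changes were in *GRHL3* (3.14 ± 0.44), *OVOL1* (3.05 ± 0.25) and *GRHL1* (2.69 ± 0.45). Against KRT15 cells they were in the same genes, at 2.87 ± 0.41, 2.16 ± 0.22 and 2.35 ± 0.41. Few UMIs stand behind the lower states, since *GRHL3* had a mean of 0.357 CPM (14 UMIs) in DLK2 and 0.427 (20 UMIs) in KRT15 cells against 3.21 in GJA1 cells, and *GRHL1* 1.103 (43 UMIs) and 1.66 (65 UMIs) against 7.67. Both passed the filter on low counts through the states in which they were high. *OVOL1* had 96 UMIs in DLK2 cells, at 0.946, 4.78 and 0.574 CPM in cows 1, 2 and 3. In GJA1 cells it was at 13.3, 37.6 and 5.71 CPM. The grainyhead-like factors act in epithelial barrier formation, and *GRHL1* is known to act on *DSG1*. *OVOL1* acts in the exit of keratinocytes from growth. In KRT15 against DLK2 cells 2 were higher, where 9.28% of all genes were, *OVOL1* (0.89 ± 0.26) and *KLF5* (0.47 ± 0.11), and in BPIFA2C against GJA1 cells edgeR called 0, with 1 of the 13 at an unadjusted p under 0.05, near the 9.6% of all genes.

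Of 6 immediate-early and stress genes (*FOS*, *JUN*, *JUNB*, *EGR1*, *ATF3*, *HSPA1A*), 5 were lower in GJA1 than in DLK2 cells (all genes 23%), 4 in KRT15 than in DLK2 cells (all genes 6.97%) and 4 in GJA1 than in KRT15 cells (all genes 13.8%), and none was higher. The heat shock gene *HSPA1A* passed in none of these, with log2 fold changes of 0.43 (adjusted p = 0.0519), 0.23 and 0.19 in the same order. In BPIFA2C against GJA1 cells edgeR called 0 of the 6, and 0 had an unadjusted p under 0.05 (all genes 9.6%). Their summed level was 1959 to 9373 CPM in DLK2 cells and 1587 to 5287 in GJA1 cells. Of the 4 cycling genes *MKI67*, *TOP2A*, *TROAP* and *RRM2*, 3 were higher in GJA1 than in DLK2 cells (all genes 22.4%) and 3 in GJA1 than in KRT15 cells (all genes 14.8%). In cow 3 the levels of *MKI67* (57.9 CPM in DLK2 and 33.3 in GJA1 cells) and *RRM2* (13.8 and 13.2) had the opposite order. The part of the stress genes in the desmosome differences was not tested. With cells that carry *MKI67* or *TOP2A* UMIs left out, all 9 calls between GJA1 and DLK2 cells held.

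Cells with under 10 *BPIFA2C* UMIs per 10000 were also binned by their level of *GJA1*. *JUP* and *PKP1* were higher in each cow in cells with 3 to 10 *GJA1* UMIs per 10000 than in cells with none, while *DSG2* was lower. In cells with no *GJA1* UMI, *JUP* was at 1.69, 1.36 and 1.47 UMIs per 10000 in cows 1, 2 and 3, and in cells with 3 to 10 *GJA1* UMIs per 10000 it was at 3.02, 2.77 and 2.71. *PKP1* went from 0.225, 0.160 and 0.213 to 0.507, 0.522 and 0.656. *DSP* went from 3.36 to 4.40 in cow 1 and from 1.22 to 2.18 in cow 2, but from 2.78 to 2.52 in cow 3. *DSG2* fell from 0.269 to 0.110 in cow 1, from 0.102 to 0.0657 in cow 2 and from 0.215 to 0.0909 in cow 3. The next bin, over 10 per 10000, held only 17 cells in cow 2 and 19 in cow 3. There *DSG2* was at 0.0497, 0.144 and 0.142 in cows 1, 2 and 3, so that in cow 2 it was highest in that bin.

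**Figure D4:**
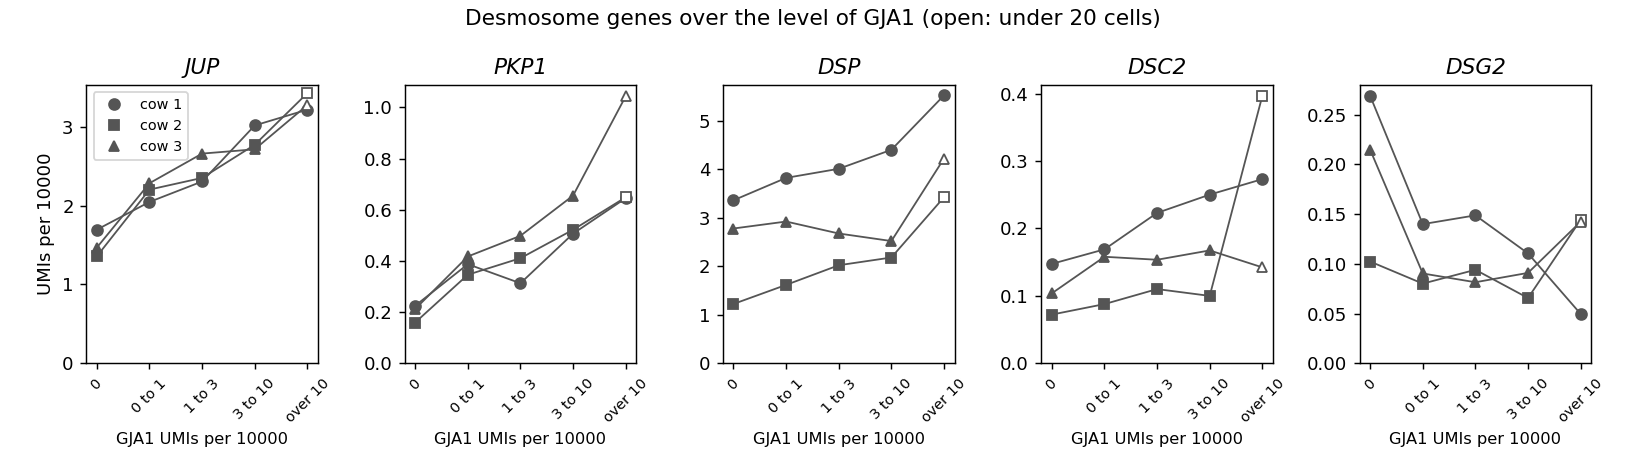
Level of 5 desmosome genes (UMIs per 10000, vertical axis) in cells binned by their *GJA1* UMIs per 10000 (horizontal axis). Cells with at least 10 *BPIFA2C* UMIs per 10000 are left out. Each line is 1 cow, and open symbols mark bins of under 20 cells. *JUP* in cells with no *GJA1* UMI lies below every other bin in each cow, and *DSG2* is highest there in cows 1 and 3.

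Bins by *KRT15* and by *DLK2* were made only of cells with no *GJA1* UMI and under 10 *BPIFA2C* UMIs per 10000. Over 4 equal bins of the *KRT15* level within each cow, *JUP* rose from 1.31 ± 0.160 UMIs per 10000 (SD, n = 3) in the lowest bin to 1.74 ± 0.220 in the highest, in each cow, and *DSG2* fell from 0.257 ± 0.117 to 0.142 ± 0.0499. Over the *DLK2* level the direction of these 2 genes was the reverse. *JUP* was at 1.62 ± 0.209 in cells with no *DLK2* UMI and at 1.25 ± 0.211 in cells with over 4 per 10000, and *DSG2* at 0.170 ± 0.0714 and 0.308 ± 0.181.

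The BPIFA2C cells differed among themselves when divided at a mitochondrial share of 5%. In 62 of them (36, 5 and 21 in cows 1, 2 and 3) under 5% of the UMIs were mitochondrial, with a median of 2966.5 UMIs per cell, and in the other 203 at least 5% were, with a median of 17796. In the 62 cells *PERP* was at 31.6, 16.3 and 55.5 UMIs per 10000 in the 3 cows and in the 203 cells at 11.6, 14.8 and 19.7. *PKP1* was at 2.83, 0.452 and 3.06 in the 62 cells and at 0.618, 0.953 and 1.19 in the 203, and *DSC2* at 0.993, 0 and 1.14 and at 0.349, 0.324 and 0.351. Both were thus higher in the 62 cells in cows 1 and 3, though not in cow 2, where the 5 cells held 1 UMI of *PKP1* and none of *DSC2*. *JUP* was at 9.93, 4.52 and 3.48 in the 62 cells and at 3.22, 3.85 and 3.69 in the 203, so that cow 1 had much the higher level in the 62 cells and cow 3 a slightly lower one. *DSP* was at 2.52, 0.904 and 1.49 in the 62 cells and at 5.01, 2.48 and 2.72 in the 203. No *DSG2* UMI was found among the 293633 UMIs of the 62 cells, which allows up to 0.102 per 10000 (3 counts, counting error only). A difference from the 203 cells, at 0.0752, 0.0185 and 0.0121, was therefore not detectable at this depth. With only the 203 cells against GJA1 cells, neither *PKP1* (log2 fold change 0.68, adjusted p = 0.0907) nor *DSC2* (0.86, adjusted p = 0.0502) passed, and within cells of 5000 to 20000 UMIs they did not pass either. With only the low-mitochondrial cells of cows 1 and 3, *DSP* was lower than in GJA1 cells (-1.30, adjusted p = 0.0032) and *PERP* (1.28, adjusted p = 4.39e-05), *PKP1* (2.02, adjusted p = 2.61e-05) and *DSC2* (2.01, adjusted p = 0.0012) were higher, where 3.96% of all genes were lower and 2.47% higher and the median log2 fold change of all genes was -0.68. Cow 2 had too few such cells for a sum. The GJA1 cells, with a median mitochondrial share of 16.6%, were not divided by this share in either comparison.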

How the data were processed

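Rumen epithelium of 3 cows was dissociated with enzymes and sequenced by droplet chemistry, 1 library per cow. Per the labels and the study's methods, the authors counted reads with Cell Ranger 3.1.0 against the cattle genome, filtered cells, looked for doublets and kept epithelial cells. The deposited count matrix holds UMI counts per gene and cell, and no further doublet or free-RNA correction was made here. The deposited natural log table holds ln(1 + UMIs per 10000) of the same cells. It gave the row names, and its values for the 10 genes and the 4 gate genes were checked against the counts. Barcode suffixes gave the cow.

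UMIs were summed per cow and state, with at least 10 cells per sum, and tested with edgeR 4.0.16 in R 4.3.3 (filterByExpr, TMM, quasi-likelihood test, Benjamini-Hochberg adjustment). Each SE was derived from that test, as the size of the log2 fold change divided by the square root of its F statistic. The common biological coefficient of variation was 0.0951. The cow was a block because the states come from the same animals. With state means removed, the mean correlation within a cow was 0.796, 0.765 and 0.758 in cows 1 to 3, and -0.385 between sums of different cows and states. Taking out the mean of 3 cows by itself pushes the value between cows below 0, so its sign is no separate result. The test was tested on simulated data with known changes. The sums, gates and figures were made in Python 3.11.15 (scipy 1.17.1, numpy 2.4.6, matplotlib 3.10.9, pandas 2.3.3).

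The 10 genes, the lists, the gates and the tests were chosen with earlier results of these data known. All 10 genes are named in each of the 4 comparisons of states. Of the lists of other desmosome, adherens junction, keratin and regulator genes, counts are given, and by name those called with the 3 largest log2 fold changes. The marker lists are given by summed levels and calls. For likeness the 2 genes with the highest r are named. The cell counts and UMIs limit counting error only, and the precision between animals rests on 3 cows. Alternatives were DESeq2 1.42.0, no filter, no block, each cow left out, other gates, cycling cells or mitochondrial genes left out, a depth range and a log2 fold change above 0.36. Counting cells past both *GJA1* and *KRT15* as GJA1 cells, and taking only BPIFA2C cells with under 5% mitochondrial UMIs, were alternatives chosen after seeing the data.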

Additional observations from a re-analysis of the deposited data

How the results depend on the processing

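Of 522 log2 fold changes of the 10 genes recomputed under alternatives, 459 kept their direction and side of the threshold, 43 lost the call, 14 gained it and 6 turned sign. The paired fit with the cow as a block is the main one. Without the block, the genes called higher and lower were 53 and 15 in KRT15 against DLK2 cells, with 0 and 0 desmosome genes, 893 and 773 in GJA1 against DLK2 cells, with 5 desmosome genes higher, 166 and 166 in GJA1 against KRT15 cells, with 0 desmosome genes lower, and 15 and 2 in BPIFA2C against GJA1 cells, with 0 higher. The cause of the other changes below was not tested.

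With each cow left out in turn, KRT15 against DLK2 cells gave 446 to 796 genes higher and 322 to 633 lower, with 2 to 6 desmosome genes higher and 0 to 1 lower. The 2 higher genes without cow 2 were *JUP* and *PKP1*. GJA1 against KRT15 cells gave 777 to 1151 higher and 630 to 1089 lower, with 0 to 1 desmosome genes lower. BPIFA2C against GJA1 cells gave 52 to 77 higher and 8 to 21 lower, with 0 to 2 desmosome genes higher. GJA1 against DLK2 cells gave 8 desmosome genes higher and 1 lower each time, among 1617 to 1998 genes higher and 1520 to 2058 lower.

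With DESeq2, 0 desmosome genes were lower in KRT15 against DLK2 cells (461 over all genes) and 0 in GJA1 against KRT15 cells (1092). In BPIFA2C against GJA1 cells 4 were higher (113 over all genes). With gates of at least 3 UMIs, 0 desmosome genes were lower in KRT15 against DLK2 cells (519 over all genes). *DSC2* was not called between GJA1 and KRT15 cells with gates of at least 1 UMI. *DSG2* was also not called between GJA1 and KRT15 cells (0 lower) with gates of at least 1 UMI, a *KRT15* gate at the 90th percentile, cells of 5000 to 20000 UMIs, or cells past both gates counted as GJA1 cells. Over all genes, 914 to 1386 were lower in these settings.

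In BPIFA2C against GJA1 cells, no filter gave 172 genes higher and 119 lower. Gates of at least 1 UMI gave 181 and 69, with 5 desmosome genes higher, and a *BPIFA2C* gate at 20 per 10000 gave 151 higher, with 5. Cells of 5000 to 20000 UMIs gave 27 and 3, with 0, and BPIFA2C cells of at least 5% mitochondrial UMIs 48 and 16, with 0. Those under 5% gave 250 and 400, with 1 desmosome gene lower. Counting cells past both gates as GJA1 cells gave 117 genes higher, with 4 desmosome genes. *DSP* turned to -0.12 with the gate at 20, -0.011 without cycling cells, -0.087 at 5000 to 20000 UMIs and -1.30 with cells under 5%. With each cow left out, *PKP3* ranged from -0.078 (without cow 3) to 0.41 in GJA1 against KRT15 cells, and *PKP2* from -0.073 (without cow 1) to 1.13 in BPIFA2C against GJA1 cells. None of these values was called with all cells and cows, and of the turned ones *DSP* was called with cells under 5%. In the BPIFA2C cells of cows 1, 2 and 3, *PKP2* rested on 9, 4 and 0 UMIs, *PKP3* on 49, 7 and 5 and *DSG2* on 14, 2 and 1, which limits their precision.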
